A study of Homo sapiens with 6 samples.

Results

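The long non-coding RNAs and small-RNA host genes described here are 216 of the 22701 genes in a table of expression levels from LX-2, an established line of human hepatic stellate cells, the cells that lay down matrix in the fibrotic liver. They were chosen by name and level: 1880 genes have symbols that start with LINC or SNHG and a number, have the form MIR...HG, or end in -AS and a number, and 216 of these had a mean of at least 1 FPKM (fragments scaled to transcript length and to the library's total) over the 6 libraries. The 216 fall into 71 intergenic RNAs (LINC), 38 host genes (24 of small nucleolar RNAs, SNHG, and 14 of microRNAs, MIR...HG) and 107 antisense RNAs (-AS). The other 1664 had a mean under 1 FPKM, 1154 of them under 0.1 FPKM, and were not tested. Level chose the members, so their levels are a description. Just inside the limit were LINC01521, LBX2-AS1 and KANSL1-AS1 with mean levels of 1.01, 1.02 and 1.02 FPKM, and just outside it GAS5-AS1, IRF1-AS1 and ST20-AS1 with 0.978, 0.973 and 0.966 FPKM.

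Every library is of cells treated with TGF-β, the cytokine that drives stellate cells toward a myofibroblast state, at a dose labelled 5 µg/mL. In 3 libraries the cells had TGF-β alone, and in the other 3 they also had 20 µM LIG (ligustilide, a plant phthalide). The question is what LIG does to gene expression on top of TGF-β, and no cells without TGF-β were analysed here. Treatment time is not labelled, nor whether the replicates are cultures of their own, so p-values reflect no more than the spread between these samples. In such bulk RNA, fewer cells of a kind and less RNA per cell cannot be told apart.

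Long non-coding RNAs are transcripts not translated into protein. Some intergenic RNAs act as RNA in the nucleus or the cytoplasm. A host gene carries microRNAs or small nucleolar RNAs (snoRNAs, guides for chemical modification of other RNAs) in its introns or exons, so that it serves as their precursor. An antisense RNA is read from the strand opposite a protein-coding gene, often from the same or an adjacent start. In stellate cells such RNAs have been studied as regulators of TGF-β signalling and matrix genes.

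The fragments behind these levels came to between 38401783 and 39260090 per library, with the largest total 1.022 times the smallest. A member had a median of 203 fragments per library, against 1494 for all genes tested, and 76 of the 216 had under 100 fragments in at least 1 library. Over all genes tested, 55.1% of the variance lay along a component that set apart the second TGF-β library and the third LIG library, and 23.8% along one that separated the groups. Stellate and fibroblast markers COL1A1, TAGLN, SPARC and VIM were abundant in every library (246.6 FPKM or more), while DES and GFAP were at 0.0193 FPKM or less and ACTA2 at 2.11 to 3.43 FPKM. The 6 markers of endothelium, among them PECAM1, CDH5 and TEK, stayed at 0.331 FPKM or less. Of the 7 blood cell markers, CD68 was at 12.1 to 14.9 FPKM and CSF1R at 0.802 to 0.947 FPKM. CD14 reached 0.599 FPKM, and the others, PTPRC among them, stayed at 0.307 FPKM or less. The hepatocyte markers APOA1 and HNF4A were at 0.0992 FPKM or less, although SERPINA1 (3.20 to 4.86 FPKM) was detected. The sum of the epithelial list moved with the groups: its 5 measured markers came to 183 to 196 FPKM under TGF-β alone and 133 to 163 FPKM with LIG added. Most of that sum was KRT8, at 121.6 to 182.4 FPKM, so the shift is mainly that of 1 gene. Of the 5, 3 had a mean of at least 1 FPKM. SOX9 was at 9.80 to 11.9 FPKM, KRT7 at 1.11 to 2.11 FPKM, and EPCAM and KRT19 at 0.112 FPKM or less. The part of this shift in the results that follow was not tested.

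Among the 216 RNAs, 1 rose and 1 fell with LIG, and 214 did not pass (limma on log2(FPKM + 1), Benjamini-Hochberg adjusted p under 0.05 over all 10695 genes tested, two-sided). The intergenic LINC00944 was higher and the microRNA host MIR503HG was lower. Over all genes tested, 0.187% were called higher and 0.505% lower, so these calls are few in the members as in the table as a whole. Without TGF-β replicate 2 and LIG replicate 3, the pair that stands apart, 3 members were called higher and 8 lower, against 1.95% and 2.69% of all genes tested. That fit keeps the libraries most alike, so its spread is small by construction, and calls made in it are no independent support. At an unadjusted p under 0.05 there were 22 members (10.2%), against 899 of all genes tested (8.41%). The 3 libraries of a group lay wholly above the 3 of the other in 32 members (14.8%), 16 in each direction, against 15.8% of all genes tested (9.07% higher, 6.73% lower). The plot of change against level shows the same picture gene by gene.

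**Figure D1:**
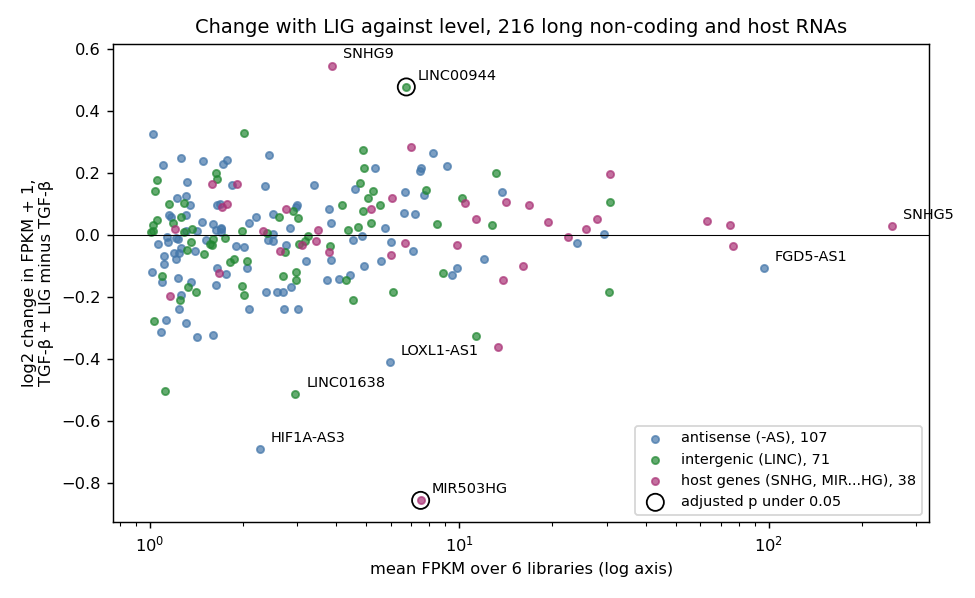
Each point is 1 of the 216 RNAs; the horizontal axis is its mean FPKM over 6 libraries (log axis), the vertical axis its log2 change in FPKM + 1 (TGF-β + LIG minus TGF-β, 3 libraries each), coloured by class, with the called members ringed. Changes run from -0.86 for MIR503HG to 0.55 for SNHG9, and 178 of 216 lie within 0.2 of 0.

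Changes were small and centred near 0 in each class. The median log2 change was 0.01 for intergenic RNAs, 0.02 for host genes and -0.02 for antisense RNAs, beside 0.03 for all genes tested. A change under 0.2 in size was found in 60 of 71 intergenic RNAs, 34 of 38 host genes and 84 of 107 antisense RNAs, against 92.1% of all genes tested. The 95% interval of the change lay wholly between -0.5 and 0.5 for 179 of the 216 members (82.9%), against 94.8% of all genes. The median SD within groups was 0.15 on the log2 scale for the members and 0.10 for all genes tested, which also have more fragments per gene. The steadiest member was the host of miR-31, MIR31HG, at 22.3, 23.1 and 22.3 FPKM under TGF-β alone and 22.4, 22.5 and 22.4 FPKM with LIG added. The least steady was LINC00342, at 3.63, 1.56 and 3.23 FPKM under TGF-β alone and 3.30, 3.25 and 1.44 FPKM with LIG added. Its low values are those of TGF-β replicate 2 and LIG replicate 3. MIR31HG and LINC00342 were singled out after their values were seen.

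MIR503HG was the only host gene called. It is a long non-coding RNA of chromosome X (134543337 to 134546632, minus strand, GRCh38, ENSG00000223749) that carries the hairpin of miR-503 within its annotated span. miR-503 belongs to the extended miR-16 family, whose members repress cyclins and other genes of the cell cycle, and the hairpin of miR-424 lies just before the start of MIR503HG. The mature microRNAs are shown because they tell which family this host gene belongs to; RefSeq (GRCh38.p14) is the source, bases 2 to 8, the seed that pairs with targets, are in capitals, and all lie on the minus strand.
miR-503-5p (chrX:134546371-134546393): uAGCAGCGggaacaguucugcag
miR-424-5p (chrX:134546680-134546701): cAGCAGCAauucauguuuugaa
miR-15a-5p (chr13:50049167-50049188): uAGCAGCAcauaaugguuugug
miR-16-5p (chr13:50049027-50049048): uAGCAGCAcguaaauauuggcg
Counted from 1 at the 5′ end, the seeds of the last 3 differ from that of miR-503-5p by G8A and are identical with each other. Mature microRNAs were not measured here, and the host RNA's level is not a measure of them.

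MIR503HG was at 9.40, 12.2 and 8.35 FPKM in replicates 1 to 3 of TGF-β alone and at 4.35, 5.23 and 5.48 FPKM in those with LIG added. Every LIG library lay below every TGF-β library, and the highest LIG value was 5.48 against a lowest TGF-β value of 8.35 FPKM. The means were 9.98 ± 1.99 FPKM (SD, n = 3) and 5.02 ± 0.596 FPKM (n = 3). The log2 change was -0.86 ± 0.13 (SE; 95% interval -1.16 to -0.55; limma adjusted p = 0.0353). It rests on 254 to 374 fragments per library with TGF-β and 132 to 169 with LIG. The direction held whichever library was left out, with changes from -0.97 to -0.72, but the call held in 1 of 6 such fits (limma adjusted p 0.0370 without LIG replicate 3, and up to 0.138 without TGF-β replicate 1). MIR503HG was already known to be among the larger falls in this table when it was chosen, so its call is no independent support.

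The tested genes among its nearest neighbours on the chromosome did not pass. HPRT1, a purine salvage enzyme whose gene lies 22.8 kb away, was at 49.3 ± 4.35 FPKM under TGF-β alone and 47.0 ± 6.98 FPKM with LIG added (limma adjusted p = 0.950). PHF6, a chromatin protein whose gene lies 114546 bases away, was at 10.4 ± 0.567 and 10.2 ± 1.27 FPKM (adjusted p = 0.979 by limma). PABIR2, 222934 bases away, was at 10.6 ± 0.710 and 11.3 ± 0.258 FPKM (adjusted p = 0.847 by limma). In all 3 the groups overlapped, with intervals of the log2 change from -0.33 to 0.18, -0.25 to 0.18 and -0.07 to 0.24. The placental gene PLAC1 and the closest neighbour, LINC00629, had means of 0.238 and 0.0485 FPKM over the 6 libraries and were not tested.

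**Figure D2:**
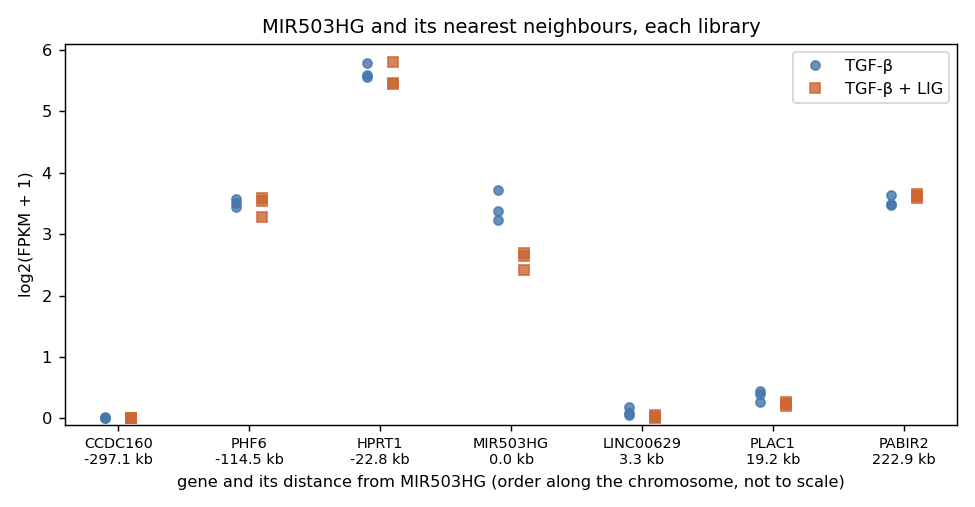
MIR503HG and the 3 nearest genes of the table on each side in chromosome order (not to scale), with the distance in kb under each name; the vertical axis is log2(FPKM + 1), circles are TGF-β libraries and squares TGF-β + LIG libraries, 3 each. MIR503HG is the gene whose libraries separate by group. HPRT1, PHF6 and PABIR2 overlap, and so do PLAC1 and LINC00629, which lie near the floor with lower means under LIG.

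The sequence around the annotated start of MIR503HG is shown because both arms of miR-424 fall inside it. The window holds 250 bases before and 50 after the start (RefSeq, GRCh38.p14, chrX:134546581-134546880, minus strand, read 5′ to 3′); capitals mark miR-424-5p, 71 to 50 bases before the start, and miR-424-3p, 34 to 14 bases before it.
MIR503HG start: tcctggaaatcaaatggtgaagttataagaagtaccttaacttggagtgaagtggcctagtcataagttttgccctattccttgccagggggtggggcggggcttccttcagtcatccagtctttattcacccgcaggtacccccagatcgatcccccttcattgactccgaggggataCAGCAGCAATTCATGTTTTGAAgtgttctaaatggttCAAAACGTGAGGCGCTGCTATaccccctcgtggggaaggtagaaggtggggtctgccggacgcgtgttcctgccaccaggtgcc
A set of 3 motifs, picked after the result for MIR503HG was known, was searched on both strands of this window. CAGAC, the core of the SMAD element through which TGF-β signalling acts, occurred 1 time, 16 to 20 bases after the start, and was in 44.95% of 27305 promoter windows of the same length. TGANTCA, the AP-1 site, had 0 matches and was in 7.76% of windows. TGACNNNGC, the core of the antioxidant response element bound by NRF2, occurred 1 time, 196 to 188 bases before the start, and was in 13.56% of windows. The matches share no bases, and a match is a description of these letters, not a binding site.

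The other 13 microRNA hosts did not pass. With MIR503HG, the groups lay apart without overlap in 4 of the 14 (28.6%), against 15.8% of all genes tested. The other 3 of these 4 were named after their values were seen. MIR4453HG was at 1.22, 1.24 and 1.48 FPKM under TGF-β alone and 1.13, 1.09 and 0.832 FPKM with LIG added, a log2 change of -0.20 (limma adjusted p = 0.581). MIR22HG, host of the abundant miR-22, was at 16.7 ± 0.499 and 15.5 ± 0.463 FPKM (adjusted p = 0.753 by limma). MIR34AHG, host of the p53-induced miR-34a, was at 10.01 ± 0.121 and 10.9 ± 0.537 FPKM (adjusted p = 0.755 by limma). These are differences of 0.20 or less on the log2 scale, smaller than that of MIR503HG. The most abundant, MIR4435-2HG, was at 25.6 ± 0.824 and 25.9 ± 1.83 FPKM. MIR17HG, host of the growth-promoting miR-17 to miR-92 cluster, was at 2.32 ± 0.220 and 2.34 ± 0.109 FPKM, with an interval of the log2 change from -0.16 to 0.18. MIR100HG, which carries miR-100, let-7a-2 and miR-125b-1, was at 16.2 ± 0.883 and 17.3 ± 0.598 FPKM.

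The snoRNA host genes were the most abundant of these RNAs, with a median level of 8.41 FPKM against 3.07 for microRNA hosts, 2.61 for intergenic and 2.06 for antisense RNAs, and none of the 24 was called by limma (1 had an unadjusted p under 0.05). Their groups overlapped in all 24, while the groups lay apart in 15.8% of all genes tested. The median SD within groups was 0.19 on the log2 scale for these hosts, against 0.10 for all genes tested, and groups with a wider spread overlap more readily. The part of this spread in the overlap was not tested. The median log2 change was 0.04. SNHG5, which hosts the box C/D snoRNAs of the SNORD50 family, had the highest level of all 216 members. It was at 216, 278 and 249 FPKM in replicates 1 to 3 of TGF-β alone and at 226, 225 and 313 FPKM in those with LIG added. The highest library of each group was TGF-β replicate 2 and LIG replicate 3, and the other 4 overlapped. The log2 change was 0.03 ± 0.15 (SE; 95% interval -0.31 to 0.37; limma adjusted p = 0.989). SNHG1 was at 77.7 ± 7.10 and 75.7 ± 5.76 FPKM, SNHG29 at 74.2 ± 5.20 and 76.2 ± 9.17 FPKM and SNHG32, annotated as protein-coding in GENCODE, at 62.3 ± 6.08 and 64.5 ± 9.92 FPKM.

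The widest differences among the snoRNA hosts were in SNHG9, SNHG19 and SNHG25, genes with lengths of 233, 357 and 111 bases as recovered from the FPKM. SNHG9, host of SNORA78, was at 1.67, 3.74 and 3.66 FPKM under TGF-β alone and 3.55, 5.14 and 5.58 FPKM with LIG added, from 15 to 51 fragments per library. Its log2 change of 0.55 had an interval from 0.02 to 1.08 and did not pass (limma adjusted p = 0.575), and it was 0.27 without TGF-β replicate 1, the lowest library. SNHG19, host of SNORD60, was at 12.4, 18.8 and 14.3 FPKM under TGF-β alone and 10.9, 9.77 and 13.9 FPKM with LIG added, a log2 change of -0.36 (limma adjusted p = 0.597). Without TGF-β replicate 2 and LIG replicate 3 it was -0.34 (limma adjusted p = 0.0386), and SNHG19 was the 1 snoRNA host called there. SNHG25 was at 6.12 ± 1.11 and 7.81 ± 2.46 FPKM, and SNHG16 at 28.3 ± 3.05 and 32.9 ± 6.02 FPKM.

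Most snoRNA hosts shared high values in the same pair of libraries, 1 from each group. In 19 of the 24 (79.2%), TGF-β replicate 2 and LIG replicate 3 were the highest library of their group, against 36.0% of all genes tested, 42.9% of the 14 microRNA hosts, 18.3% of intergenic RNAs and 28.0% of antisense RNAs. This count was made after SNHG5 and its like were seen to be high there, and it carries no test. The same held for 14 of 18 snoRNA hosts outside the SNHG names, such as GAS5 and ZFAS1. GAS5 was at 78.5 and 94.4 FPKM in those libraries and at 66.4 to 72.4 FPKM in the other 4. The gene length recovered from the FPKM moved with the pattern. The share of all genes highest in both libraries was 72.9% for genes under 1000 bases, 75.9% from 1000 to 2000, 48.8% from 2000 to 4000 and 14.5% for longer ones. Of the SNHG hosts, 9 of 10 under 1000 bases, 5 of 7 from 1000 to 2000, 5 of 6 from 2000 to 4000 and 0 of 1 longer showed it. The part of length in the pattern of the snoRNA hosts was not tested.

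**Figure D3:**
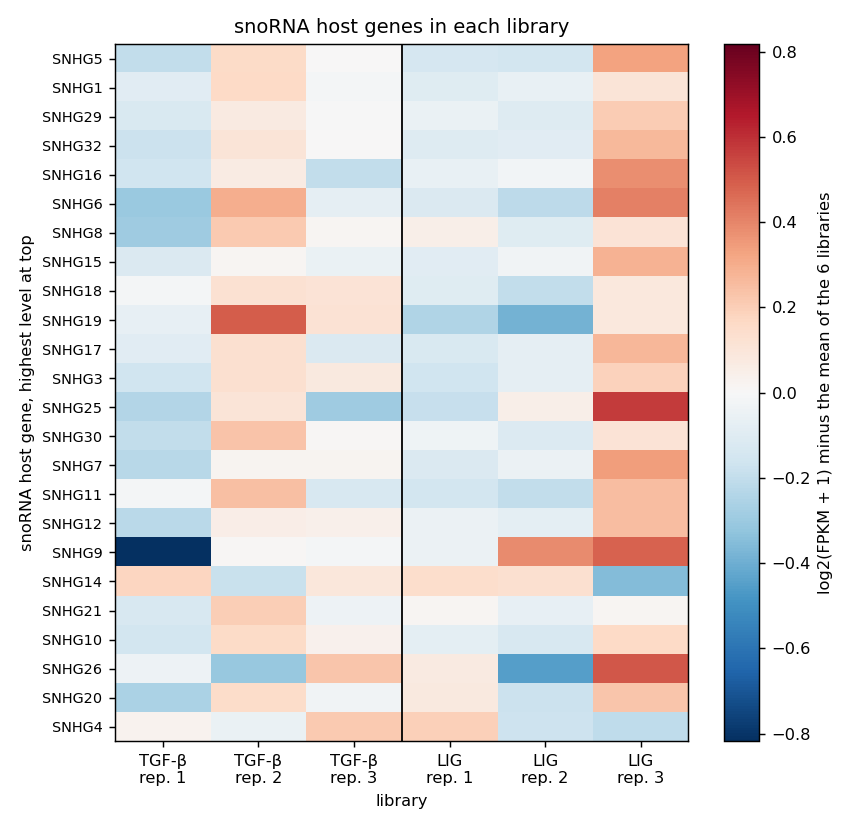
Rows are the 24 snoRNA host genes, most abundant at the top, and columns the 6 libraries; colour gives log2(FPKM + 1) minus the gene's mean over the libraries, red above and blue below it. The red columns are TGF-β replicate 2 and LIG replicate 3, 1 in each group, while the groups on the left and right of the line do not separate.

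The annotated starts of the most abundant snoRNA hosts are shown because many snoRNA hosts and ribosomal protein genes are known to begin with a C and a run of pyrimidines, the 5′ terminal oligopyrimidine tract. Each line gives 10 bases before and 20 from the start (RefSeq, GRCh38.p14); capitals mark a C followed by at least 4 more C or T that begins within 3 bases of the start.
SNHG5 (chr6:85678714-85678743, minus): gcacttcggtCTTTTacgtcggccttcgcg
SNHG1 (chr11:62855866-62855895, minus): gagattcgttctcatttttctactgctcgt
SNHG29 (chr17:16438977-16439006, plus): ccttttgtgaggattgggatattccgactc
SNHG32 (chr6:31834906-31834935, plus): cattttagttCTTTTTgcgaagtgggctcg
SNHG16 (chr17:76557754-76557783, plus): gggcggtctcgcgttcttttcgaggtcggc
By this single definition, 8 of 20 SNHG hosts with a window (40.0%) had such a run, against 13.07% of all windows, 30.77% of 13 microRNA hosts, 21.57% of 51 intergenic RNAs and 13.64% of 88 antisense RNAs. The search was made after the library pattern was seen and depends on where RefSeq places the start.

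LINC00944 was the member that rose. It is an intergenic RNA of chromosome 12 (126729787 to 126772411, minus strand, GRCh38, ENSG00000256128) whose exons overlap no other annotated gene. It was at 5.51, 5.53 and 5.37 FPKM in replicates 1 to 3 of TGF-β alone and at 8.04, 7.80 and 8.20 FPKM in those with LIG added. Each group was tight and the groups lay far apart, with the lowest LIG library at 7.80 and the highest TGF-β library at 5.53 FPKM. The log2 change was 0.48 ± 0.06 (SE; 95% interval 0.34 to 0.62; limma adjusted p = 0.0145). LINC00944 was the second steadiest of the 216 members, with an SD within groups of 0.03 on the log2 scale against a median of 0.15 for the members. The call leans on that small SD, which 3 libraries a group estimate poorly. Its level rests on 129 to 134 fragments per library with TGF-β and 186 to 200 with LIG. On those fragments limma voom put the change at 0.52 ± 0.11 (SE), short of the threshold (adjusted p = 0.111). With single libraries left out the change ran from 0.46 to 0.50 and was called in 1 of 6 fits (limma adjusted p 0.0187 without LIG replicate 3, and up to 0.128 without TGF-β replicate 3).

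**Figure D4:**
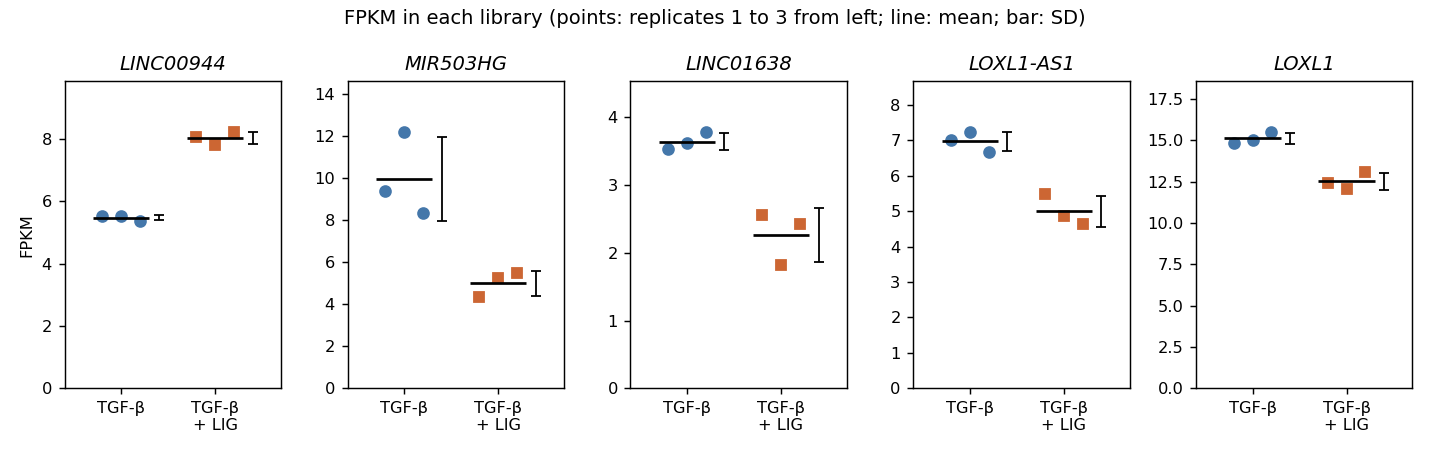
FPKM of LINC00944, MIR503HG, LINC01638, LOXL1-AS1 and its sense gene LOXL1 in each library (vertical axis from 0, its own scale per gene); points are replicates 1 to 3 from left to right, circles TGF-β and squares TGF-β + LIG, lines the mean and bars the SD. The groups do not overlap in any of the 5, and LINC00944 and MIR503HG are the ones called.

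The remaining 70 intergenic RNAs did not pass, and in 8 of them the groups lay apart. With LINC00944 that is 9 of 71 (12.7%), against 15.8% of all genes tested. LINC01638 came closest, at 3.53, 3.62 and 3.78 FPKM under TGF-β alone and 2.55, 1.82 and 2.43 FPKM with LIG added. Its log2 change was -0.51 ± 0.10 (limma adjusted p = 0.0724) from 41 to 86 fragments per library, and it was called without TGF-β replicate 2 and LIG replicate 3 (limma adjusted p = 0.0263). LINC02783 was at 2.07, 0.782 and 1.66 FPKM under TGF-β alone and 0.877, 0.794 and 0.518 FPKM with LIG added, so the groups overlapped through TGF-β replicate 2 (log2 change -0.50, limma adjusted p = 0.490). LINC00941 was at 12.2, 13.03 and 11.3 FPKM under TGF-β alone and 14.0, 14.2 and 14.2 FPKM with LIG added. The LIG libraries all lay higher, by 0.20 on the log2 scale, and did not pass (limma adjusted p = 0.414). LINC02328 was at 4.32 ± 0.310 and 5.46 ± 0.837 FPKM and LINC01357, with 9 to 31 fragments per library, at 1.72 ± 0.918 and 2.31 ± 0.557 FPKM.

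The most abundant intergenic RNAs did not pass. LINC01629, the highest, was at 29.5 ± 2.52 FPKM under TGF-β alone and 31.9 ± 3.40 FPKM with LIG added, and LINC02432 at 32.5 ± 2.58 and 28.6 ± 2.87 FPKM. LINC02381 was at 12.5 ± 1.75 and 12.9 ± 2.60 FPKM. LINC01583 was at 14.3, 9.88 and 14.1 FPKM under TGF-β alone and 11.1, 11.1 and 7.66 FPKM with LIG added, low in TGF-β replicate 2 and LIG replicate 3 alike. Its log2 change of -0.33 did not pass (limma adjusted p = 0.696), and 1 library moved it to -0.17 (without LIG replicate 3) or -0.49 (without TGF-β replicate 2). Without both it was -0.33 and called (limma adjusted p = 0.00501), in a fit whose spread is small by construction.

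None of the 107 antisense RNAs was called by limma or by voom, and 12 had an unadjusted p under 0.05 by limma, against 8.41% of all genes tested. Their groups lay apart in 19 (17.8%), 8 higher and 11 lower, against 15.8% of all genes tested. Exons of 85 of the 106 with an annotation overlap exons of some gene on the opposite strand, and in 78 of 101 annotated pairs they overlap those of the sense partner. The use of strand in the authors' counting is not stated, so reads from such shared bases cannot be told apart. A sense partner had a row for 102 of the 107, and 80 of those partners passed the level filter. None of the 80 was called by limma or by voom. An unadjusted p under 0.05 by limma was found in 7, against 899 of the 10695 genes tested (8.41%). The change was above 0 in 51 and below it in 29, against 6508 and 4187 of all genes tested. The groups of the partners lay apart in 17 (21.2%), 11 higher and 6 lower, against 15.8% of all genes tested.

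LOXL1-AS1 came closest among the antisense RNAs. LOXL1 encodes a lysyl oxidase that crosslinks elastin and collagen, and the antisense RNA (chromosome 15, 73908071 to 73928248, minus strand) shares 335 exonic bases with it. LOXL1-AS1 was at 6.99, 7.22 and 6.67 FPKM under TGF-β alone and 5.49, 4.85 and 4.65 FPKM with LIG added, so every LIG library was lower. The log2 change was -0.41 ± 0.08 (SE; 95% interval -0.58 to -0.24; limma adjusted p = 0.0667), from 519 to 801 fragments per library. It passed with quantile normalization (limma adjusted p = 0.0452) and without TGF-β replicate 2 and LIG replicate 3 (limma adjusted p = 0.0272). LOXL1 itself was at 14.9, 15.0 and 15.5 FPKM under TGF-β alone and 12.4, 12.1 and 13.1 FPKM with LIG added. Its groups did not overlap either, with a log2 change of -0.25 (limma adjusted p = 0.2003; 0.0111 without those libraries).

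The widest antisense difference was uneven between libraries. HIF1A-AS3, an antisense RNA that overlaps the gene of the hypoxia factor subunit HIF-1α and shares no exonic bases with it, was at 3.31, 2.89 and 2.71 FPKM under TGF-β alone and 1.89, 2.25 and 0.573 FPKM with LIG added. The log2 change of -0.69 ± 0.24 did not pass (limma adjusted p = 0.428), and 12 fragments stand behind the lowest value, that of LIG replicate 3. HIF1A was at 243, 237 and 240 FPKM under TGF-β alone and 225, 222 and 186 FPKM with LIG added, lowest in the same library. PSMB8-AS1, which overlaps exons of the immunoproteasome subunit PSMB8, was at 1.69 ± 0.259 and 1.15 ± 0.342 FPKM, and PSMB8 at 23.1 ± 1.45 and 20.1 ± 1.95 FPKM. In the other direction, KANSL1-AS1 was at 0.646, 0.884 and 0.842 FPKM under TGF-β alone and 0.991, 1.35 and 1.42 FPKM with LIG added, on 13 to 29 fragments (log2 change 0.33, limma adjusted p = 0.2997). Its partner KANSL1, of the NSL histone acetyltransferase complex, was at 5.92 ± 0.614 and 5.80 ± 0.577 FPKM. NUTM2A-AS1 was at 7.34 ± 0.523 and 9.07 ± 1.31 FPKM while NUTM2A was nearly silent, and NAV2-AS6 at 2.11 ± 0.296 and 2.73 ± 0.432 FPKM beside NAV2 at 3.86 ± 0.771 and 4.19 ± 0.961 FPKM.

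Several antisense RNAs were more abundant than their partner. The antisense RNA was the higher of the pair, per length, in 35 of 102. FGD5-AS1, the most abundant, was at 100.2 ± 0.641 FPKM under TGF-β alone and 93.2 ± 7.49 FPKM with LIG added, while FGD5, which encodes an exchange factor for small GTPases, was at 2.56 ± 0.251 and 2.64 ± 0.333 FPKM. The LIG libraries of FGD5-AS1 were all lower, with a log2 change of -0.11, and did not pass (limma adjusted p = 0.811). THAP9-AS1 was at 24.3 ± 1.49 and 23.8 ± 1.32 FPKM beside THAP9 at 0.710 ± 0.0727 and 0.575 ± 0.0279 FPKM. PAX8-AS1 was at 12.996 ± 0.361 and 14.4 ± 1.19 FPKM beside the thyroid and kidney factor PAX8 at 0.950 ± 0.123 and 0.887 ± 0.160 FPKM. The reverse held for PSMA3-AS1, at a mean of 29.5 FPKM over the 6 libraries beside 190.4 FPKM for the proteasome subunit PSMA3. OIP5-AS1, a cytoplasmic RNA also known as Cyrano, and OIP5 were close in level, at means of 11.99 and 14.6 FPKM.

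The changes of antisense RNAs and sense genes were weakly related over the 80 pairs, and 48 pairs had the same sign. Pearson's r was 0.40 and Spearman's coefficient 0.28 over pairs that share 6 libraries and their depth. Where exons overlap (60 pairs) these were 0.22 and 0.08, and where they do not (19 pairs) 0.63 and 0.62. The difference between these sets of pairs was not tested. These are descriptions across genes, which are not replicates.

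**Figure D5:**
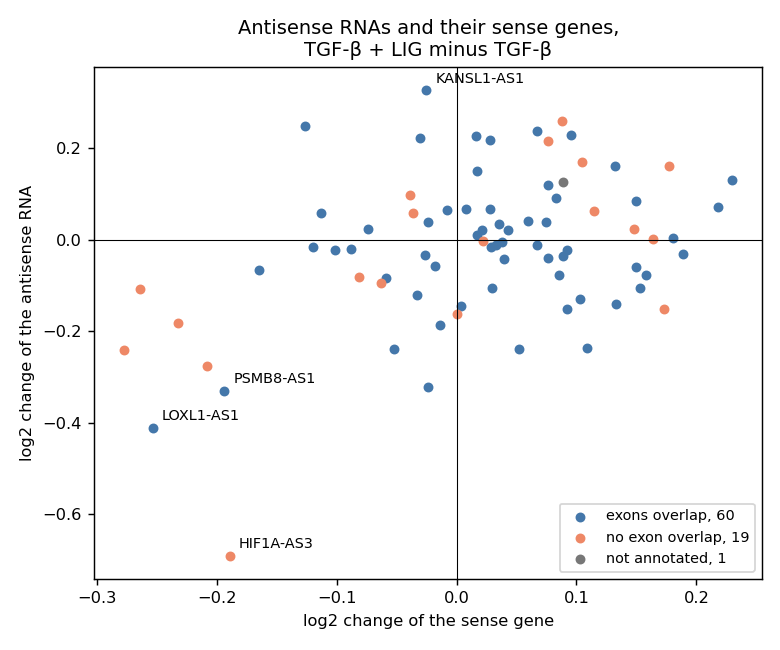
Each point is 1 of 80 antisense and sense pairs; the axes are the log2 changes (TGF-β + LIG minus TGF-β) of the sense gene and the antisense RNA, coloured by whether their exons overlap. LOXL1-AS1, PSMB8-AS1 and HIF1A-AS3 lie in the lower left with their partners, at -0.41, -0.33 and -0.69, while KANSL1-AS1 at 0.33 has a partner near 0.

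Other well-known long non-coding RNAs were listed from general knowledge. Of 50 listed, 21 were outside the member names and passed the level filter, and 0 were called higher or lower by limma (1 at an unadjusted p under 0.05, the median log2 change 0.00). The most abundant, NORAD, which binds Pumilio proteins, was at 147.8 ± 0.744 FPKM under TGF-β alone and 153.6 ± 15.6 FPKM with LIG added. CYTOR was at 63.4 ± 6.73 and 60.9 ± 10.8 FPKM and ZFAS1 at 62.5 ± 5.92 and 66.8 ± 10.8 FPKM. The groups lay apart in 2 (9.52%, against 15.8% of all genes tested), MIAT and TP53TG1, named for that after their values were seen. MIAT was at 3.34, 2.14 and 2.78 FPKM under TGF-β alone and 2.01, 1.98 and 1.53 FPKM with LIG added (limma adjusted p = 0.366). Of 20 listed snoRNA hosts outside the SNHG names, 18 were tested and 0 were called, with 0 at an unadjusted p under 0.05.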

How the data were processed

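The deposited table gives FPKM, made by the authors, with 1 column for each of the 6 libraries, per the file headers. HISAT2 2.1.0, fastp, DESeq2 and GRCh38.p13 are listed, without roles, per the submitters' processing notes; the counting tool, annotation and use of strand are not given in the sources used here. From the FPKM, log2(FPKM + 1) of the 10695 genes with a mean of at least 1 was tested with limma 3.58.1 (R 4.3.3; group only, empirical Bayes with trend, two-sided, 4 residual and 4.10 prior degrees of freedom), with Benjamini-Hochberg adjustment at 0.05. Fold changes on this scale understate those of low genes. With 3 libraries a group, an exact two-sided permutation test reaches p = 0.1 at best. No scaling was added.

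Each gene's FPKM in the 6 libraries were read as whole fragments over 1 length and the library totals, the length being the one that made all values whole within 0.0001. By this construction every value came out whole, and on simulated data 99.5% of lengths were recovered, the rest being a whole divisor of the true one. Fragments gave the depth and 1 alternative (limma voom with TMM scaling). The limma fit was checked on 3 simulated sets of the 10695 genes. Noise there was drawn for each gene on its own, without the shared component that sets libraries apart within the groups. The check therefore cannot speak to errors under that component.

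Positions, exon overlaps and microRNAs or snoRNAs inside a gene came from GENCODE release 29 (GRCh38; 211 of 216 members matched), and sequences from RefSeq (GRCh38.p14; start windows for 172 members). Named genes were MIR503HG, the members called, in each class the 5 highest levels and the 3 largest changes in each direction, their sense partners, the neighbours of MIR503HG, the 4 most abundant other long non-coding RNAs and members at the level limit; others are said to be chosen after their values were seen. The members and lists were chosen with earlier results of these data known. Alternatives were another pseudocount (0.1), no filter or a mean of at least 5, TPM, quantile normalization, no trend, a log2 change of at least 1, voom, a replicate block, and fits without each library in turn or without both that stand apart. Python 3.11.15, numpy 2.4.6, pandas 2.3.3 and matplotlib 3.10.9 were used.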

Additional observations from a re-analysis of the deposited data

How the results depend on the processing

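Of 676 refits of 43 named genes, 611 kept direction and side of the threshold, 17 lost a call and 9 gained one. The other 39, in 17 genes called neither by limma in the report nor in those refits, changed sign. Without TGF-β replicate 2 and LIG replicate 3 together the log2 change was -0.047 for LINC01357, -0.111 for LINC02381, 0.0076 for OIP5-AS1, -0.050 for PSMA3-AS1, -0.016 for SNHG29, -0.014 for SNHG32 and -0.042 for SNHG5. With quantile normalization it was -0.0032 for LINC02381, -0.030 for PSMA3-AS1 and -0.0056 for SNHG5, and PSMA3-AS1 was at -0.018 from TPM and -0.022 by voom. With 1 library left out it ran from -0.203 to 0.032 for CYTOR, -0.029 to 0.103 for FGD5, -0.0061 to 0.199 for GAS5, -0.101 to 0.046 for KANSL1, -0.105 to 0.161 for LINC02381, -0.051 to 0.253 for NAV2, -0.0017 to 0.136 for NORAD and -0.038 to 0.159 for OIP5. It ran from -0.137 to 0.041 for OIP5-AS1, -0.077 to 0.052 for PSMA3-AS1, -0.098 to 0.034 for SNHG1, -0.062 to 0.093 for SNHG29, -0.077 to 0.108 for SNHG32, -0.129 to 0.115 for SNHG5, -0.076 to 0.0088 for THAP9-AS1 and -0.041 to 0.160 for ZFAS1. The count of host genes called lower (MIR503HG) and that of intergenic RNAs called higher (LINC00944) were 1 each. Both were 0 with no level filter and under the replicate block. Both were also 0 with a log2 change of at least 1, which could not come out otherwise. That limit only filters the calls of the report, where the changes were -0.86 for MIR503HG and 0.48 for LINC00944. The 17 lost calls include these. Voom left the intergenic count at 0 and MIR503HG called (limma adjusted p = 0.0428). With 1 library left out, each of these counts ranged from 0 to 1, the 1 being without LIG replicate 3, and the other counts were 0. Quantile normalization called 1 antisense RNA lower. Without TGF-β replicate 2 and LIG replicate 3 together, 2 intergenic RNAs were called higher and 3 lower, 2 host genes lower, 1 antisense RNA higher and 3 lower, and 3 sense partners higher and 2 lower. That choice leaves the libraries most alike, so the spread is small by construction.

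Over all genes tested, calls went from 20 higher and 54 lower to 5 and 9 with no filter, 9 and 13 under the replicate block, 2 and 3 with a log2 change of at least 1, and 209 and 288 without both libraries. With 1 library left out they ran from 6 higher and 5 lower (without TGF-β replicate 3) to 24 and 69 (without LIG replicate 3). The deviations of same-numbered libraries from their group means correlated at 0.47 for replicate 1, -0.57 for replicate 2 and -0.34 for replicate 3, and 1 of 6 libraries correlated best with its own number. The labels tie no number to a shared culture or day, so the numbers were not taken to pair the libraries. Under the block the limma adjusted p was 0.0563 for MIR503HG and 0.131 for LINC00944. The cause of these shifts was not tested. The 95% interval of the log2 change had a median half-width of 0.28 in the 76 members with under 100 fragments in a library and 0.21 in the other 140.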
